A study of Mus musculus with 24 samples.

Results

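Cytosolic ribosomal protein genes encode the protein subunits of the ribosome that translates messages of the nucleus, and they were examined here over muscle stem cells (MuSCs), myoblasts and myotubes from *mdx* and WT mice. A gene was a member when its symbol was Rpl or Rps followed by a number (with a letter such as a, x, y or l where present) or was *Rpsa*, *Rplp0*, *Rplp1* or *Rplp2*, and only transcripts annotated as protein-coding were counted. Kinases of the Rps6k family and symbols ending in -ps were left out. The rule found 83 genes of 53392, of which 51 encode proteins of the large subunit and 32 of the small subunit, with 228 protein-coding transcripts. Of the 83, 77 are canonical subunits and 6 are paralogues (*Rpl3l*, *Rpl7l1*, *Rpl10l*, *Rpl22l1*, *Rpl39l* and *Rps27l*). The rule itself uses no expression value.

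A ribosome holds a single copy of nearly all of these proteins, so cells make them in matched amounts, largely by controlling how often their messages are translated. Most of these messages begin with a run of pyrimidines directly at the cap, the 5′ terminal oligopyrimidine (TOP) motif, through which growth signals acting by mTOR and the cap-binding protein LARP1 switch their translation on and off. Quiescent MuSCs are small cells with little RNA and low protein synthesis, and they enlarge and build ribosomes when injury activates them. Myotubes are postmitotic, and their messages are dominated by those of the contractile apparatus. Ribosomal protein messages have also been copied into the genome by retrotransposition many times in mammals, which leaves processed pseudogenes close in sequence to their parents.

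The study compared *mdx* mice, which carry a mutation in *Dmd*, the gene of dystrophin, and serve as a model of Duchenne muscular dystrophy, with WT mice on the C57BL/10ScSn background. Both genotypes carried the *Pax7*-nGFP reporter, which marks PAX7-expressing cells with nuclear GFP. The 8 groups had 3 libraries each and were freshly isolated MuSCs (FiMuSCs), activated MuSCs (AMuSCs), primary myoblasts and myotubes of *mdx* and of WT mice. FiMuSCs came from resting hindlimb muscle and AMuSCs from hindlimb muscle taken 3 days after intramuscular injection of 10 µM cardiotoxin, a toxin that destroys myofibres. Both were sorted by FACS as GFP-positive, ITGA7-positive cells negative for CD31, CD45, SCA1 and CD11b, and their RNA was extracted with a kit for small cell numbers. Myoblasts were enriched by magnetic separation on the same surface antigens without the GFP gate and grown in medium with serum and FGF, and myotubes were the same cells after 2 days in low-serum differentiation medium. Their RNA came from another kit, so that sorted and cultured cells cannot be compared apart from the kit. The design text calls the 3 libraries of a group biological replicates, and the ages of the mice used for them were not given in the sources used here.

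Totals ranged from 37280196 to 64429222 estimated reads per library, with a median of 47357500. *Pax7*, the defining transcription factor of MuSCs, lay between 1383 and 1915 CPM (counts per 1000000 of the library) in FiMuSCs and between 19.9 and 35.7 CPM in myotubes. *Myog*, which drives differentiation, lay between 1246 and 2387 CPM in myotubes and between 11.01 and 25.4 CPM in FiMuSCs. Both markers thus matched the labels, and markers of other cells were also present in some sorted libraries. The sum of 13 leukocyte and macrophage markers was 547 to 1661 CPM in *mdx* FiMuSCs and 80.3 to 371 CPM in WT FiMuSCs, and 173 to 5036 CPM in *mdx* AMuSCs and 14.9 to 39.3 CPM in WT AMuSCs. In FiMuSCs, 8 markers of fibro-adipogenic progenitors summed to 731 to 1028 CPM in *mdx* and 851 to 1430 CPM in WT, and 8 endothelial markers to 242 to 648 CPM in *mdx* and 272 to 322 CPM in WT. By gene, 7 of the 8 endothelial markers had a positive log2 fold change in *mdx* against WT FiMuSCs (median 1.32), and 1 was called higher and 1 lower. *Tek* went the other way, with 50.9 to 91.4 CPM in *mdx* FiMuSCs and 123 to 150 CPM in WT FiMuSCs. Most of the fibro-adipogenic sum was *Dpt* (341 to 605 CPM over the FiMuSC libraries) and *Col15a1* (310 to 823 CPM). The other markers of that list reached at most 35.0 CPM. Among them *Pdgfra* lay between 3.35 and 6.09 CPM in *mdx* FiMuSCs and between 1.23 and 2.22 CPM in WT FiMuSCs. In culture, 1 *mdx* myoblast library had a leukocyte and macrophage sum of 222 CPM, and 1 WT myoblast library had 1722 CPM of 10 mature myofibre markers, against 312 and 360 CPM in the other 2. The highest of the leukocyte sums belonged to *mdx* AMuSC replicate 1, a library from cells sorted as CD45-negative. A second library stood apart in ribosomal protein messages themselves. *mdx* AMuSC replicate 2 lay above *mdx* AMuSC replicates 1 and 3 for most members, and the counts and medians of members in comparisons that use *mdx* AMuSCs are given below with and without it. Replicate 2 was set apart by these member levels themselves. Lower levels of members in *mdx* AMuSCs without it thus follow in part from that choice. Because these are bulk samples, fewer cells of a type and less RNA per cell cannot be told apart.

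The TOP motif was looked for at the annotated start sites. The RefSeq promoter table (GRCm38.p6, 250 bases before to 50 bases after each annotated start) held 63 of the 83 members. Within 5 bases of an annotated start, 29 of these 63 genes (46.0%) had a C followed by at least 4 bases that were each C or T, on the strand of the gene, against 21.2% of all 27025 genes in the table. The motif of ETS factors such as GABPA, CCGGAAGT or its reverse complement ACTTCCGG anywhere in the 300 bases, was found in 12 members (19.0%) and in 4.31% of all genes. TATAAA within the 50 bases before the start was found in 1 member (1.59%) and in 3.15% of all genes. Start sites of 6 genes described below are printed with 10 bases before the annotated start and 20 bases from it, and capitals mark the pyrimidine run where one matched. They lie at chr17:24720053-24720082 (plus strand) for *Rps2*, chr7:45128726-45128755 (minus strand) for *Rpl13a*, chr14:24490668-24490697 (plus strand) for *Rps24*, chr7:141447641-141447670 (plus strand) for *Rplp2*, chr9:66946076-66946105 (plus strand) for *Rps27l* and chr10:128549149-128549178 (minus strand) for *Rpl41*.
Rps2: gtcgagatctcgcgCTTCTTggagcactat
Rpl13a: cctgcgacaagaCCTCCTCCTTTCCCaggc
Rps24: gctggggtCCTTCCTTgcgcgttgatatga
Rplp2: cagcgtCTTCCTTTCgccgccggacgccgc
Rps27l: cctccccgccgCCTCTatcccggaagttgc
Rpl41: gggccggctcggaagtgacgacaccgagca
*Rpl41* had no match in this window, which says only that these letters are not at its annotated start. The motif is a description of the annotated starts, and no start was measured in these libraries.

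Where the reads of a ribosomal protein were placed had to be known before any gene could be read. A fragment from such a message also matches other annotated transcripts of the gene, such as retained introns, and near-identical copies elsewhere. Transcripts of 1104 other genes were at least 90% identical to a member transcript over at least 80% of the length, and 1084 of these genes are annotated as pseudogenes and 20 as protein-coding. In the median library, the estimated reads on members, their other transcripts and these copies were split into 54.6% on protein-coding transcripts of the members (range over libraries 52.1 to 55.9%), 17.3% on other transcripts of the same genes (16.9 to 18.6%) and 28.0% on copies (26.6 to 30.9%). The split of these summed reads was close to the same in all 24 libraries, but it differed widely between members and, for some members, between libraries. Over libraries, the share on protein-coding transcripts ran from 10.8 to 52.2% for *Rpl3*, 48.6 to 99.4% for *Rps3a1* and 50.1 to 99.4% for *Rpl26*. For *Rpl32* it stayed between 99.8 and 99.9%. Protein-coding transcripts held over 90% of the reads for 29 members, under 50% for 39 members and under 10% for 22 members. Values below are those of the protein-coding transcripts, as the rule sets them, and are given beside the sum over all transcripts and copies, called the family total here, wherever the difference matters.

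**Figure D1:**
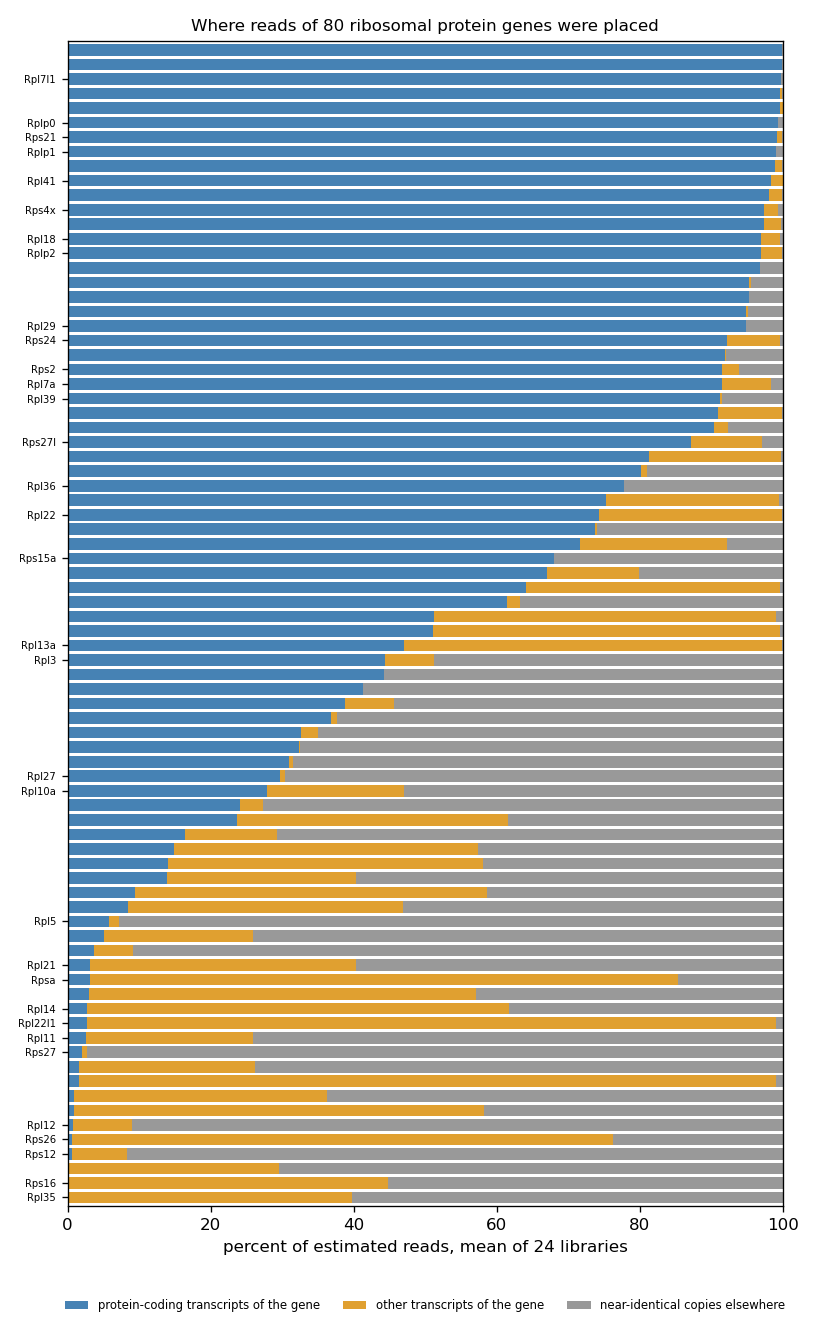
Percent of estimated reads (horizontal axis, mean of 24 libraries) on the protein-coding transcripts of a gene, on its other transcripts and on near-identical copies elsewhere, for the 80 members with a mean of at least 100 reads in all, a row each, with most of the genes described in the text labelled. The blue bars run from under 10% for 22 members to over 90% for 27 of those drawn.

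Pairs of a member and its most-read copy show how little there was to tell them apart. *Rpl5*, which joins *Rpl11* and the smallest ribosomal RNA of the large subunit in the 5S ribonucleoprotein particle, lies at chr5:107900502-107909005 (plus strand) and received a mean of 3059 reads per library on its protein-coding transcripts. Its copy *Gm15500*, a transcribed processed pseudogene at chr7:114705217-114706235 (minus strand), received 48566. *Rpl11*, the partner of *Rpl5*, lies at chr4:136028265-136053428 (minus strand) and received 651 reads, and its processed pseudogene *Gm10288* at chr3:146838811-146839347 (minus strand) received 17162. The first 30 bases of the coding sequence (GENCODE M21, GRCm38) and the matching stretch of the copy were identical at 30 of 30 positions in both pairs.
Rpl5: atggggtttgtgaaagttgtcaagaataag
Gm15500: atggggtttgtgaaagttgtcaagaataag
Rpl11: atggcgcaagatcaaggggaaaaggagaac
Gm10288: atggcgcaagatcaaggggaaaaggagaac
The stretch was also identical at 30 of 30 positions for *Rps27*, *Rpl12* and *Rpl10* and their most-read copies. For *Rps12* and its copy *Rps12l1*, 16 of 30 positions differed, although the copy met the limits of 90% identity over 80% of the length. The 30 bases taken for this pair therefore do not show how far it can be told apart. A read within an identical stretch cannot be assigned by the match, but these 30 bases do not cover whole fragments. Members whose reads were split in this way are named below with their family totals or their share of reads on protein-coding transcripts. Among the 77 canonical members, protein-coding transcripts received means of 31.4 to 79050 reads per library. Family totals covered a much smaller range, 7984 reads for *Rpl38* to 81152 for *Rps2*, with a median of 28603.

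As a set, the members held the smallest share of counts in myotubes in both genotypes and, in WT, the largest in AMuSCs. The protein-coding transcripts of all 83 genes took 2.96 ± 0.0253% of the counts of a library in *mdx* FiMuSCs and 3.12 ± 0.109% in WT FiMuSCs, 3.13 ± 0.455% in *mdx* AMuSCs and 3.41 ± 0.223% in WT AMuSCs (mean ± SD, n = 3 each). In culture they took 2.69 ± 0.266% in *mdx* myoblasts and 2.59 ± 0.0899% in WT myoblasts, and 1.64 ± 0.0794% in *mdx* myotubes and 1.68 ± 0.0469% in WT myotubes. Myotubes lay below myoblasts in every library of both genotypes, and WT AMuSCs lay above WT FiMuSCs. The *mdx* AMuSC libraries held 2.96, 3.65 and 2.79% and the *mdx* FiMuSC libraries 2.97, 2.99 and 2.94%, in order of replicate, so that replicate 2 alone lay above all *mdx* FiMuSC libraries. The family totals took 5.50 ± 0.0376% and 5.72 ± 0.206% in *mdx* and WT FiMuSCs, 5.77 ± 0.792% and 6.25 ± 0.440% in *mdx* and WT AMuSCs, 4.97 ± 0.386% and 4.64 ± 0.171% in *mdx* and WT myoblasts, and 3.04 ± 0.0925% and 3.03 ± 0.0819% in *mdx* and WT myotubes. On this scale too, *mdx* AMuSC replicates 1 and 3, with 5.45 and 5.19%, lay below the 3 *mdx* FiMuSC libraries.

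On the scale of TPM (transcripts per 1000000), which divides by effective length, the means of FiMuSCs were above those of AMuSCs in both genotypes. The share of TPM was 6.96 ± 0.0887% in *mdx* FiMuSCs and 7.29 ± 0.111% in WT FiMuSCs, 6.59 ± 0.704% in *mdx* AMuSCs and 6.43 ± 0.426% in WT AMuSCs, 5.84 ± 0.427% in *mdx* myoblasts and 5.44 ± 0.227% in WT myoblasts, and 3.46 ± 0.148% in *mdx* myotubes and 3.47 ± 0.151% in WT myotubes. In order of the means, WT FiMuSCs did not overlap *mdx* FiMuSCs, while *mdx* FiMuSCs overlapped *mdx* AMuSCs, the 2 AMuSC groups overlapped each other, and so did the 2 myoblast groups and the 2 myotube groups. All WT FiMuSC libraries (7.19 to 7.41%) lay above all WT AMuSC libraries (6.17 to 6.92%), which is opposite to the order by counts. The lowest group mean, in *mdx* myotubes, was 0.475 times the highest on the TPM scale and 0.481 times the highest on the scale of counts. Fragment length was not measured, and the median gap between annotated and effective length of long transcripts was taken as a stand-in. Its group means were 365 and 378 bases in *mdx* and WT FiMuSCs and 343 and 351 bases in *mdx* and WT AMuSCs. In culture they were 329.7 and 309 bases in *mdx* and WT myoblasts, and 344 and 345 bases in *mdx* and WT myotubes. The 5 member transcripts under 300 bases had the same listed effective length in all 24 libraries. The part of effective length in the order of the states was not tested.

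**Figure D2:**
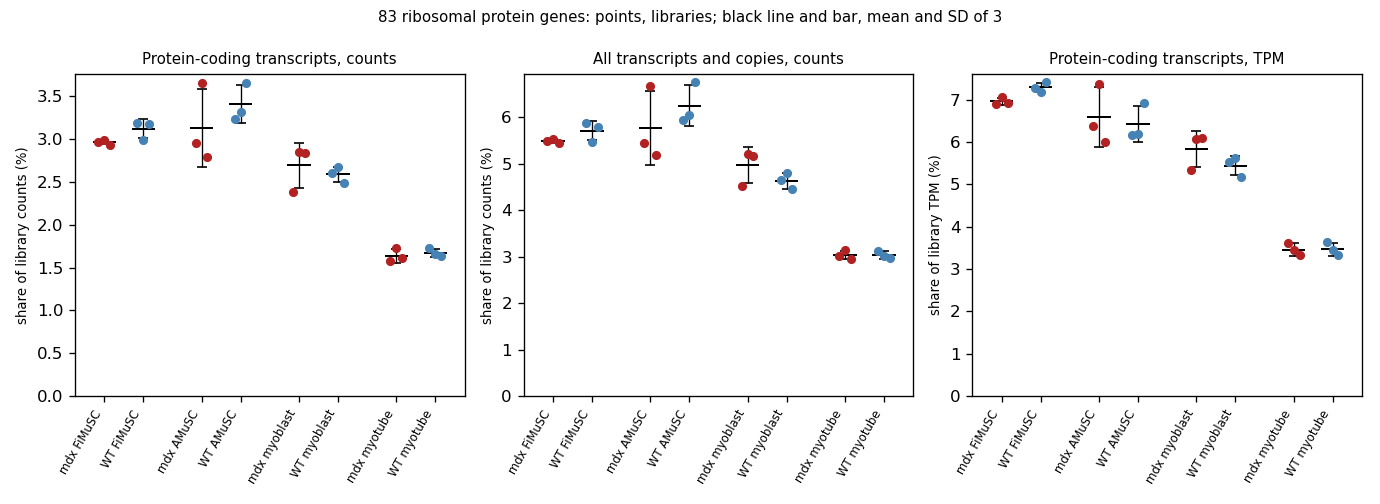
Share of each library taken by the 83 genes (vertical axes, percent), as counts of protein-coding transcripts (left), counts of all transcripts and copies (middle) and TPM of protein-coding transcripts (right), over the 8 groups with *mdx* left of WT. Points are libraries, and black lines and bars are means and SDs of 3. Myotubes are lowest in all 3 panels, and 1 *mdx* AMuSC library stands above the other 2.

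In summed TPM, the balance of the subunits differed between the sorted states. The summed TPM of large-subunit genes was 1.40 ± 0.00372 times that of small-subunit genes in *mdx* FiMuSCs and 1.38 ± 0.00611 times in WT FiMuSCs, and 1.501 ± 0.00790 times in *mdx* AMuSCs and 1.54 ± 0.0605 times in WT AMuSCs. All 6 AMuSC libraries lay above all 6 FiMuSC libraries in this ratio, and over all 24 libraries it stayed between 1.38 and 1.60. The sums include the short transcripts described below, and the ratio was not computed without them. By gene, the median log2 fold changes with injury were close, at 0.22 for large-subunit and 0.21 for small-subunit members in *mdx* and 0.30 and 0.24 in WT. Levels per length can be compared between genes only for the 26 canonical members with at least 90% of their reads on protein-coding transcripts. Among these the mean over 24 libraries ran from 471 TPM for *Rpl39*, which lines the exit tunnel, through a median of 1019 TPM to 4998 TPM for *Rpl18*. The high value of *Rpl18* rested on 2 annotated fragments of 254 and 282 bases, whose effective lengths were listed as 22 and 37 bases and which had means of 2969 and 1170 TPM. The second-highest member, *Rps15a* (mean 4356 TPM), owed 4130 TPM to a transcript of 250 bases with a listed effective length of 20. Transcripts under 300 bases held 1.24% of the members' counts but 15.4% of their TPM in the median library. *Rplp1* of the stalk had a mean of 2119 TPM, and *Rpl41*, which encodes the smallest protein of the set, had a mean of 1976 TPM. At the other end, 9 canonical members fell under 10 TPM, each with at most 8.40% of its reads on protein-coding transcripts and with a family total of 14787 to 32179 reads. The 5 lowest means of all members were 0.885 TPM for *Rps16*, 0.529 TPM for *Rpl35*, 0.186 TPM for *Rpl3l*, 0.0523 TPM for *Rpl39l* and 0 TPM for *Rpl10l*.

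Against the median member, 4 genes shifted most over the 8 groups on the TPM scale. Relative to the median of the 59 members at 50 TPM or more, the group means of *Rps27l* had an SD of 0.977 on the log2 TPM scale, those of *Rpl41* 0.517, those of *Rpl7l1* 0.477 and those of *Rpl27* 0.421. With family totals the SDs were 0.922, 0.453, 0.407 and 0.375 in the same order. The next in order on the TPM scale were *Rps2* (SD 0.369), *Rpl10a* (0.365) and *Rpl3* (0.344), and the others of the 59 members had SDs of at most 0.269. With family totals these 3 genes had SDs of 0.391, 0.387 and 0.388, each above that of *Rpl27*. *Rps27l*, a p53-responsive paralogue of *Rps27*, had 298 ± 12.9 TPM in *mdx* FiMuSCs and 279.6 ± 27.4 TPM in WT FiMuSCs, 616 ± 99.7 TPM in *mdx* AMuSCs and 633 ± 36.0 TPM in WT AMuSCs. In culture it had 1173 ± 136 TPM in *mdx* myoblasts and 1070.2 ± 106 TPM in WT myoblasts, and 551 ± 40.8 TPM in *mdx* myotubes and 457 ± 47.5 TPM in WT myotubes (mean ± SD, n = 3). Its transcript of 271 bases had a mean of 411 TPM, so its CPM is the safer scale.

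**Figure D3:**
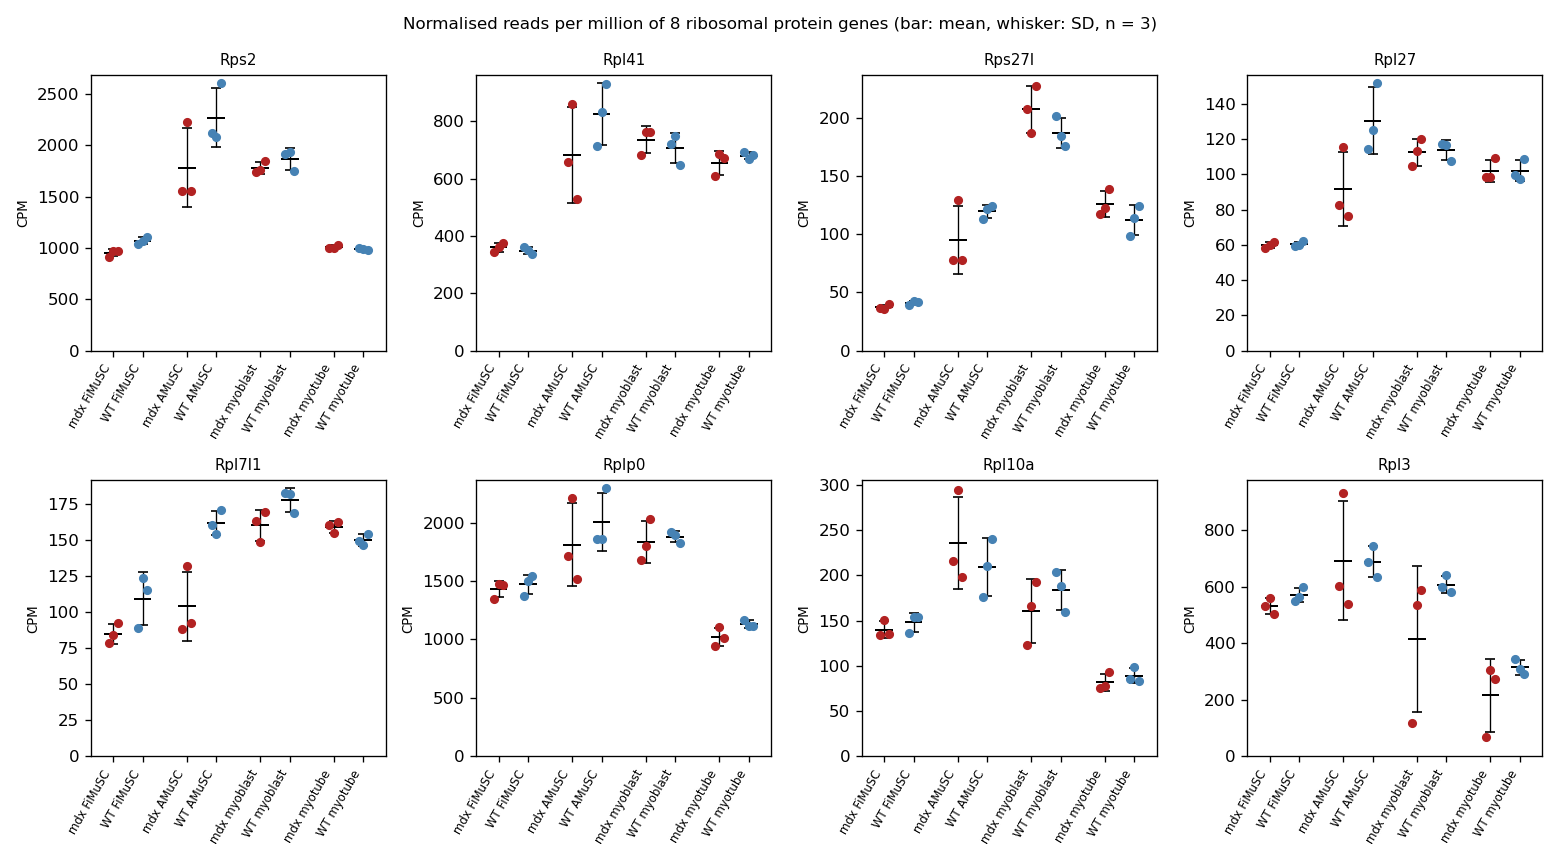
CPM (vertical axes, linear and starting at 0) of the protein-coding transcripts of *Rps2*, *Rpl41*, *Rps27l*, *Rpl27*, *Rpl7l1*, *Rplp0*, *Rpl10a* and *Rpl3* in the 24 libraries, scaled together, with *mdx* left of WT in each state. Points are libraries, and black lines and bars are means and SDs of 3. AMuSCs lie above FiMuSCs for the first 4 genes, and myotubes below myoblasts for *Rps2*, *Rps27l*, *Rplp0* and *Rpl10a*.

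By normalised counts, many ribosomal protein messages were higher in WT AMuSCs than in WT FiMuSCs after injury. The members' summed share of TPM went the other way, as given above. Of the 79 members that passed the filter on low counts, 34 rose and 3 fell at an adjusted p under 0.05 (edgeR quasi-likelihood test, Benjamini-Hochberg adjustment over all genes tested). Over all 19358 genes tested, 31.5% were higher and 33.1% lower, so the share of members that rose lay above that background and the share that fell below it. The median log2 fold change of the members was 0.29, beside -0.07 over all genes. Both subunits had positive medians, 0.30 for large-subunit members and 0.24 for small-subunit members. With family totals 47 members rose and 1 fell, and 34 members were called in the same direction both ways. Markers of other cells and of division moved with the same comparison. All 8 endothelial markers were lower in WT AMuSCs than in WT FiMuSCs (median log2 fold change -4.11), as were 7 of 8 fibro-adipogenic markers (-2.74) and 10 of 13 leukocyte and macrophage markers (-2.05), all 8 proliferation markers were higher (3.87), and the part of these cells in the ribosomal protein levels was not tested.

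*Rps2*, which sits near the mRNA entry channel of the small subunit, had 2396, 2352 and 2921 CPM in WT AMuSCs and 1176, 1193 and 1244 CPM in WT FiMuSCs (log2 fold change 1.09 ± 0.11 SE, edgeR adjusted p = 4.4e-05). *Rpl41* had 804, 939 and 1042 CPM in WT AMuSCs and 409, 391 and 379 CPM in WT FiMuSCs (1.24 ± 0.11, edgeR adjusted p = 2.3e-05). *Rps27l* had 128, 137 and 139 CPM in WT AMuSCs and 44.4, 47.1 and 47.4 CPM in WT FiMuSCs (1.54 ± 0.08, edgeR adjusted p = 1.4e-06). For all 3 genes every activated library lay above every resting one, and the family totals gave 1.11, 1.27 and 1.61. *Rpl27*, a large-subunit protein, had 129, 142 and 170.5 CPM in WT AMuSCs and 67.4, 67.2 and 69.9 CPM in WT FiMuSCs (1.11 ± 0.11, edgeR adjusted p = 4.1e-05). *Rpsa*, the laminin-receptor protein of the small subunit, had 64.0, 63.4 and 66.9 CPM in WT AMuSCs and 35.2, 35.5 and 35.4 CPM in WT FiMuSCs (0.87 ± 0.08, edgeR adjusted p = 2.1e-05), with 3.15% of its reads on protein-coding transcripts and 0.80 by family total. *Rpl29* and *Rpl7a*, both of the large subunit, rose by 0.74 and 0.65 on the log2 scale (edgeR adjusted p = 4.0e-04 and 3.6e-04).

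The stalk, the flexible arm that recruits elongation factors, is built of proteins whose 3 genes all passed. *Rplp0*, its base, had 2101, 2096 and 2573 CPM in WT AMuSCs and 1560.5, 1672 and 1736 CPM in WT FiMuSCs (0.45 ± 0.11, edgeR adjusted p = 0.0071). *Rplp1* had 1086, 1087 and 1357 CPM in WT AMuSCs and 806, 759.7 and 799 CPM in WT FiMuSCs (0.58 ± 0.11, edgeR adjusted p = 0.0018), and *Rplp2*, its dimer partner, rose by 0.32 (edgeR adjusted p = 0.022). The 3 messages thus rose by 0.32 to 0.58 on the log2 scale, and more than 96% of the reads of each lay on protein-coding transcripts. Of the 5S particle, *Rpl11* had 13.5, 20.1 and 22.0 CPM in WT AMuSCs and 7.56, 10.6 and 7.59 CPM in WT FiMuSCs (1.10 ± 0.22, edgeR adjusted p = 0.0025), and 0.47 by family total. Its partner *Rpl5* had 64.0, 64.0 and 66.0 CPM in WT AMuSCs and 63.4, 73.2 and 76.4 CPM in WT FiMuSCs, a difference of -0.13 that did not pass the test (edgeR adjusted p = 0.23). *Rpl11* and *Rpl5* are the genes printed above beside their copies, with 2.53% and 5.82% of their reads on protein-coding transcripts.

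The 2 largest fold changes belonged to members whose reads lay mostly outside their protein-coding transcripts. *Rps26*, at the mRNA exit of the small subunit, had 5.86, 6.72 and 4.52 CPM in WT AMuSCs and 1.08, 0 and 0.421 CPM in WT FiMuSCs. Its log2 fold change was 3.42 ± 1.00 on 0.603% of its reads, 2.85 to 4.53 with 1 library left out, and 0.64 by family total (edgeR adjusted p = 2.7e-04). *Rpl14* had 29.6, 27.2 and 30.4 CPM in WT AMuSCs and 8.999, 11.1 and 9.15 CPM in WT FiMuSCs (1.57), and 0.54 by family total. Both were higher either way, and by less with all reads counted. The 3 members that fell were *Rpl22*, *Rps4x* and *Rps21*. *Rps4x*, the X-linked form of a small-subunit protein, had 1262, 1303 and 1378 CPM in WT AMuSCs and 1616, 1532 and 1585 CPM in WT FiMuSCs (-0.26 ± 0.08, edgeR adjusted p = 0.024). *Rps21* had 335, 323 and 368 CPM in WT AMuSCs and 417, 386 and 399 CPM in WT FiMuSCs (-0.23 ± 0.09, edgeR adjusted p = 0.047). By family total these were -0.20 and -0.17 and did not pass (edgeR adjusted p = 0.065 and 0.12).

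*Rpl22*, an RNA-binding large-subunit protein that mice can live without, turned with the treatment of transcript length. It had 248, 253 and 241 CPM in WT AMuSCs and 339, 331 and 341 CPM in WT FiMuSCs (-0.45 ± 0.07, edgeR adjusted p = 8.6e-04). With the effective length of its transcripts as an offset the log2 fold change was 0.51 (edgeR adjusted p = 0.0015). Its long transcript Rpl22-204, of 2051 bases, had 15.7 ± 0.355 TPM in WT AMuSCs and 87.8 ± 6.29 TPM in WT FiMuSCs, while the short transcript Rpl22-201, of 474 bases, had 457 ± 21.01 TPM in WT AMuSCs and 381 ± 21.2 TPM in WT FiMuSCs. In *mdx* cells Rpl22-204 had 34.3 ± 6.21 TPM in AMuSCs and 77.1 ± 3.70 TPM in FiMuSCs (mean ± SD, n = 3 each). The groups did not overlap for the long transcript in either genotype. These transcripts were looked up after the values of the gene had been seen.

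In *mdx* mice fewer members passed. Of 80 members tested, 9 rose and 2 fell in *mdx* AMuSCs against *mdx* FiMuSCs, where 19.1% of all 19649 genes were higher and 10.4% lower, and the members' shares lay below that background in both directions. The median log2 fold change of the members was 0.22, beside 0.05 over all genes. The median standard error of a member was 0.18 here and 0.10 in WT, so the counts of the 2 genotypes were not reached at the same spread. *Rps2* had 1794, 2552 and 1883 CPM in *mdx* AMuSCs and 1039.6, 1128 and 1114 CPM in *mdx* FiMuSCs (0.92 ± 0.18, edgeR adjusted p = 0.010). *Rpl41* had 757, 985 and 641 CPM in *mdx* AMuSCs and 392.0, 419.8 and 427 CPM in *mdx* FiMuSCs (0.94 ± 0.18, edgeR adjusted p = 0.0096). *Rps27l* had 89.8, 148 and 94.4 CPM in *mdx* AMuSCs and 41.8, 41.5 and 45.5 CPM in *mdx* FiMuSCs (1.37 ± 0.21, edgeR adjusted p = 0.0038). All activated libraries lay above all resting ones for these 3 genes, and replicate 2 was the highest each time. *Rpl27* rose by 0.64, *Rpsa* by 0.70, *Rpl29* by 0.61, *Rpl7a* by 0.58 and *Rpl10a* by 0.78, but by family total none of these 5 passed (edgeR adjusted p = 0.098, 0.11, 0.080, 0.11 and 0.31). *Rps26* rose by 2.13, and by 0.52 by family total (edgeR adjusted p = 0.11). With family totals 3 members rose and 1 fell, and 4 were called both ways.

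The 2 members that fell in *mdx* AMuSCs were *Rpl3l* and *Rps27*. *Rpl3l*, the form of *Rpl3* found in striated muscle, had 0.0647, 0.0200 and 0.145 CPM in *mdx* AMuSCs and 0.629, 0.760 and 0.543 CPM in *mdx* FiMuSCs (-2.53 ± 0.63, edgeR adjusted p = 0.022). All of these values are under 1 CPM. *Rps27* had 2.20, 1.34 and 1.45 CPM in *mdx* AMuSCs and 3.75, 41.2 and 9.58 CPM in *mdx* FiMuSCs (-3.42), but 2.06% of its reads lay on protein-coding transcripts, its annotated copy *Rps27rt* received a mean of 9103 reads beside 354, and the family total gave -0.39 (edgeR adjusted p = 0.16).

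The median response of the members was positive only with *mdx* AMuSC replicate 2 in the fit. Over the 70 members with a mean of at least 10 CPM, the median log2 ratio to the mean of *mdx* FiMuSCs was 0.08 in *mdx* AMuSC replicate 1, 0.53 in replicate 2 and 0.01 in replicate 3. Without replicate 2 the median log2 fold change of the members was -0.06 in place of 0.22, and 5 members rose and 4 fell, where 11.6% of all genes were higher and 9.73% lower. *Rps2*, *Rpl41*, *Rps27l*, *Rpl27* and *Rpl10a* were the 5 that rose. In the same library mitochondrially encoded genes held 2.68% of counts, against 3.80% and 3.90% in *mdx* AMuSC replicates 1 and 3, and the leukocyte marker sum was lowest at 173 CPM. The part of these differences in the ribosomal protein levels was not tested.

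The difference between the 2 injury responses was tested over the 12 sorted libraries. No member of 80 passed in either direction (edgeR quasi-likelihood test, with unadjusted p under 0.05 for 3 members and 29.9% of all genes, and 0 called by DESeq2), where 8.14% of all 21085 genes were higher and 6.95% lower. The median difference of the members was -0.17, beside -0.03 over all genes, and 66 of 80 were negative, where 48.3% of all genes were above 0. Without *mdx* AMuSC replicate 2 the median was -0.38 and 12 of 80 members passed, all with a smaller response in *mdx*, where 11.7% of all genes had a smaller and 10.4% a larger one. The median standard error of a member in this test was 0.24 on the log2 scale, which sets the size of the differences that were detectable.

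Set side by side at 3 days after injury, *mdx* AMuSCs had lower levels of 3 members than WT AMuSCs and higher levels of none, of 79 tested. Over all 19320 genes 14.8% were higher and 8.99% lower. The median log2 fold change of the members was -0.16, beside 0.04 over all genes, and 66 of the 79 were negative, where 52.3% of all genes were above 0. *Rpl7l1*, a paralogue of *Rpl7* that works in assembly of the large subunit, had 96.2, 142 and 105 CPM in *mdx* AMuSCs and 175, 166 and 182 CPM in WT AMuSCs (-0.61 ± 0.16, edgeR adjusted p = 0.031), and the same by family total. All 3 *mdx* libraries lay below all 3 WT libraries, and 99.8% of its reads lay on protein-coding transcripts. The other members that fell were *Rps26* with 1.02, 2.44 and 2.40 CPM in *mdx* AMuSCs and 5.65, 6.42 and 4.31 CPM in WT AMuSCs (-1.46, edgeR adjusted p = 0.032), and *Rps12* with 4.83, 2.01 and 3.79 CPM in *mdx* AMuSCs and 8.61, 8.53 and 6.38 CPM in WT AMuSCs (-1.14, edgeR adjusted p = 0.048). Under 1% of the reads of either lay on protein-coding transcripts, and by family total they were -0.15 and -0.30 and did not pass (edgeR adjusted p = 0.60 and 0.25). *Rps2*, the gene with the highest family total, had 1701, 2399 and 1781 CPM in *mdx* AMuSCs and 2310.3, 2246 and 2783 CPM in WT AMuSCs, groups that overlapped (-0.32 ± 0.19, edgeR adjusted p = 0.26).

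The 3 *mdx* AMuSC libraries did not behave alike. Relative to the mean of WT AMuSCs, the median over 70 members was -0.27 in *mdx* AMuSC replicate 1, 0.16 in replicate 2 and -0.39 in replicate 3, against -0.08, -0.03 and 0.09 in the WT AMuSC libraries. In *mdx* AMuSC replicates 1 and 3, 66 and 68 of the 70 members lay below the WT mean, and in replicate 2, 56 lay above it. Without replicate 2, 26 of 79 members were called, all lower in *mdx*, where 15.1% of all genes were lower and 16.1% higher, and the median log2 fold change was -0.39. Because replicate 2 had been set apart by its high member levels, this direction follows in part from leaving it out. Leaving out WT AMuSC replicate 1, 2 or 3 left no member called, and leaving out *mdx* AMuSC replicate 3 left 1. Other measures moved with genotype in these cells. The 8 proliferation markers summed to 1252 to 1592 CPM in *mdx* AMuSCs and 2375 to 2550 CPM in WT AMuSCs, and all 8 were lower in *mdx*. Of the 13 leukocyte and macrophage markers 8 were higher and none lower in *mdx* AMuSCs, and *Ptprc*, which encodes CD45, lay between 4.39 and 173 CPM in *mdx* AMuSCs and between 0.128 and 0.652 CPM in WT AMuSCs. The part of these cells in the ribosomal protein levels was not tested.

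Before injury no member passed between *mdx* and WT FiMuSCs, of 80 tested (edgeR quasi-likelihood test), while 5.82% of all 19405 genes were higher and 3.83% lower. Unadjusted p-values were under 0.05 for 9 members and for 25.6% of all genes, and DESeq2 called 1 member, which was lower. The members leaned downward all the same. Of the 80, 63 had a negative log2 fold change, where 49.9% of all genes were above 0, the median was -0.08 beside 0.00 over all genes, and the groups did not overlap for 33 members, 30 of them lower in *mdx*, where 31.8% of all genes did not overlap. Over 70 members at 10 CPM or more, the median log2 ratio to the mean of WT FiMuSCs was -0.07, -0.08 and -0.08 in the *mdx* FiMuSC libraries and 0.03, -0.03 and 0.00 in the WT FiMuSC libraries. The median standard error of a single member was 0.08. *Rplp0* had 1641, 1785 and 1737 CPM in *mdx* FiMuSCs and 1646, 1762 and 1828 CPM in WT FiMuSCs (-0.02 ± 0.09, edgeR adjusted p = 0.92). *Rps2* had 1110.0, 1174 and 1157 CPM in *mdx* FiMuSCs and 1241, 1257 and 1310.2 CPM in WT FiMuSCs (-0.15 ± 0.08, edgeR adjusted p = 0.31). Of the leukocyte and macrophage markers, 8 of 13 were higher in *mdx* FiMuSCs, and their part in the shift was not tested.

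In culture no member passed between the genotypes by edgeR's test. No member of 80 passed between *mdx* and WT myoblasts (unadjusted p under 0.05 for 2 members and 14.4% of all genes, and 1 called by DESeq2, higher in *mdx*), and the median log2 fold change was 0.03, beside 0.02 over all genes. No member of 80 passed between *mdx* and WT myotubes either (unadjusted p under 0.05 for 3 members and 13.5% of all genes, and 1 called by DESeq2, higher in *mdx*), with a median of -0.06 beside 0.01. Few genes passed at large, 0.244% higher and 0.110% lower in myoblasts and 0.373% higher and 0.211% lower in myotubes. Among the 26 members with at least 90% of their reads on protein-coding transcripts, the log2 fold changes lay between -0.23 and 0.15 in myoblasts and between -0.39 and 0.04 in myotubes. Of 70 members at 10 CPM or more, 6 were shifted by at least 0.5 on the log2 scale in the same direction in replicate 1 of *mdx* myoblasts and of *mdx* myotubes against the other 2 replicates, and *Rpl3*, which reaches towards the peptidyl transferase centre, was shifted most. It had 103, 483 and 516 CPM in *mdx* myoblasts and 61.4, 284 and 242 CPM in *mdx* myotubes, so that replicate 1 was low in both, and its transcript Rpl3-201 was listed at 0 in both of these libraries. By family total none of 80 members was shifted in this way.

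With differentiation ribosomal protein messages were lower relative to other genes in both genotypes. In WT cells 41 members fell and 2 rose of 80 tested, where 34.9% of all 16906 genes were higher and 34.5% lower in myotubes. The median log2 fold change of the members was -0.23, beside -0.02 over all genes. In *mdx* cells 29 members fell and 1 rose of 80, where 25.7% of all 17205 genes were higher and 26.5% lower, and the median was -0.28 beside -0.07. With family totals 50 fell and 5 rose in WT and 42 fell and 1 rose in *mdx*, and 39 and 28 members were called in the same direction both ways. Scaling by library totals in place of TMM moved the median of all genes to -0.32 in WT and -0.39 in *mdx* and that of the members to -0.54 and -0.62, so the gap between members and all genes stood on either scale.

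*Rps2* had 865, 868 and 855 CPM in WT myotubes and 1601, 1659 and 1459.8 CPM in WT myoblasts (-0.87 ± 0.06, edgeR adjusted p = 9.2e-06). In *mdx* cells *Rps2* had 926, 922 and 914 CPM in myotubes and 1514, 1585 and 1614 CPM in myoblasts (-0.77 ± 0.09, edgeR adjusted p = 6.7e-04). *Rps2* thus rose with injury and fell with differentiation in both genotypes. *Rpl10a*, the protein of the L1 stalk of the large subunit, had 73.6, 86.1 and 72.7 CPM in WT myotubes and 169.8, 162 and 133 CPM in WT myoblasts (-1.0002 ± 0.11, edgeR adjusted p = 9.3e-05). It had 69.9, 71.5 and 82.3 CPM in *mdx* myotubes and 108, 149 and 168 CPM in *mdx* myoblasts (-0.93 ± 0.18, edgeR adjusted p = 0.0048). *Rpl3* had 299, 270.1 and 255 CPM in WT myotubes and 500.5, 550.2 and 487 CPM in WT myoblasts (-0.90 ± 0.08, edgeR adjusted p = 2.5e-05), and its family total fell by 0.95. *Rpl13a*, which carries the long pyrimidine run printed above, fell by 0.63 in WT and by 0.88 in *mdx*, and *Rps4x* by 0.53 in WT and by 0.70 in *mdx*. Myotubes and myoblasts did not overlap for any of these genes in WT, nor in *mdx* apart from *Rpl3*, where replicate 1 stood apart as described above (-0.91 ± 0.75, edgeR adjusted p = 0.35).

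The genes of the stalk fell with differentiation apart from *Rplp2* in WT, which did not pass. *Rplp0* had 1014, 972 and 974 CPM in WT myotubes and 1599, 1622 and 1527 CPM in WT myoblasts (-0.68 ± 0.05, edgeR adjusted p = 1.5e-05). It had 874, 1021 and 894 CPM in *mdx* myotubes and 1464, 1619.7 and 1776 CPM in *mdx* myoblasts (-0.80 ± 0.12, edgeR adjusted p = 0.0019). *Rplp1* fell by 0.53 in WT and by 0.53 in *mdx* on the log2 scale. *Rplp2* fell by 0.29 in *mdx* (edgeR adjusted p = 0.045), and in WT its -0.11 did not pass (edgeR adjusted p = 0.20). The difference between the 3 genes was not itself tested. *Rpl5* and *Rpl11*, the 5S pair, did not pass in WT (-0.13 and 0.25, edgeR adjusted p = 0.12 and 0.25) or in *mdx* (0.06 and 0.24, edgeR adjusted p = 0.75 and 0.37). *Rpl41*, which had stood among the most increased after injury, was level with differentiation, at 600.1, 583 and 595 CPM in WT myotubes and 600.1, 643 and 543 CPM in WT myoblasts (-0.01 ± 0.07, edgeR adjusted p = 0.94).

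*Rpl12*, part of the stalk base, had the largest falls among the members that passed, on 0.711% of its reads. It had 1.27, 1.34 and 0.745 CPM in WT myotubes and 5.11, 6.45 and 5.42 CPM in WT myoblasts (-2.30 ± 0.26), and 1.08, 2.099 and 0.735 CPM in *mdx* myotubes and 4.44, 5.18 and 7.63 CPM in *mdx* myoblasts (-2.11 ± 0.46). By family total it fell by 1.05 in WT and by 1.16 in *mdx* (edgeR adjusted p = 6.0e-06 and 2.8e-04), and only *Rpl22l1* fell by more on that scale, by 1.35 and 1.40. For *Rpl21* the scales parted. Its protein-coding transcripts had 10.6, 10.8 and 13.7 CPM in WT myotubes and 25.6, 22.0 and 20.6 CPM in WT myoblasts (-0.96, edgeR adjusted p = 3.5e-04), while its family total gave 0.07 (edgeR adjusted p = 0.36), which has the other sign.

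The members that rose in myotubes were *Rpl3l* in both genotypes and *Rpl36* in WT. *Rpl3l* had 0.525, 0.267 and 0.248 CPM in WT myotubes and 0.0156, 0.0157 and 0.0440 CPM in WT myoblasts (2.59 ± 0.50, edgeR adjusted p = 0.0021). It had 0.581, 0.325 and 0.875 CPM in *mdx* myotubes and 0, 0.0647 and 0 CPM in *mdx* myoblasts (3.35 ± 0.84, edgeR adjusted p = 0.015). The direction is opposite to that of *Rpl3*, yet *Rpl3l* stayed under 1 CPM in every library, against 242 CPM or more of *Rpl3* in 5 of the 6 myotube libraries. *Rpl36* had 170.2, 150.2 and 170.2 CPM in WT myotubes and 135, 153 and 119 CPM in WT myoblasts (0.27 ± 0.10, edgeR adjusted p = 0.042), with overlapping groups and -0.04 under scaling by library totals. Between the genotypes, no member of 81 differed in its differentiation response (edgeR quasi-likelihood test, with unadjusted p under 0.05 for 1 member and 12.3% of all genes, and 0 called by DESeq2), where 0.0269% of all genes were higher and 0.0323% lower, and the median difference was -0.03, beside 0.03 over all genes.

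**Figure D4:**
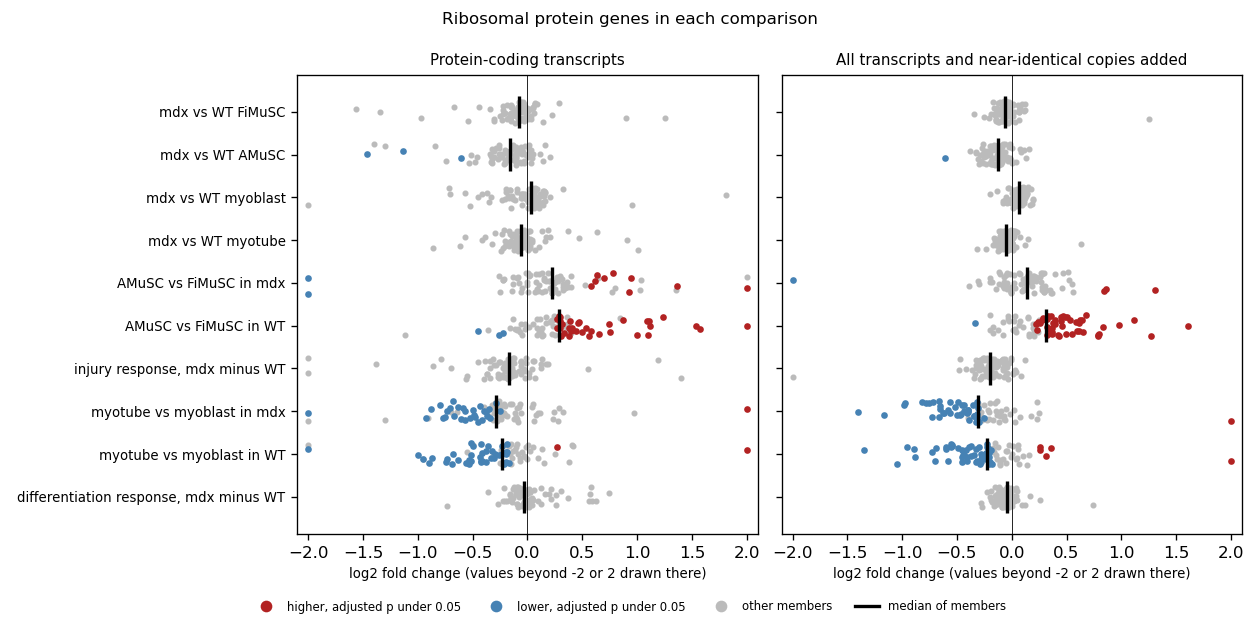
Log2 fold changes of the members in the 10 comparisons, from protein-coding transcripts (left) and from all transcripts and copies (right). Each point is a member, red or blue where it was higher or lower at an adjusted p under 0.05 and grey otherwise, black marks are medians, and values beyond -2 or 2 are drawn at those limits. The points draw together when copies are added, and the medians of the injury and differentiation comparisons keep their sides of 0.

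The 6 paralogues had little in common. *Rpl10l*, known from the testis, was listed at 0 in all 24 libraries, and *Rpl39l*, also a testis form, had at most 0.352 TPM, so neither passed the filter on low counts in any comparison. *Rpl22l1* had 15.1 ± 5.60 TPM in *mdx* myoblasts and 15.3 ± 5.83 TPM in WT myoblasts, and 2.73 ± 4.31 TPM in *mdx* myotubes and 1.67 ± 1.66 TPM in WT myotubes, with 2.71% of its reads on protein-coding transcripts. *Rpl7l1* had 92.5 ± 8.58 TPM in *mdx* FiMuSCs and 117 ± 23.9 TPM in WT FiMuSCs, and 101 ± 11.8 TPM in *mdx* AMuSCs and 136 ± 14.6 TPM in WT AMuSCs. It rose with injury in WT (0.56 ± 0.12, edgeR adjusted p = 0.0035), and in *mdx* its 0.32 did not pass (edgeR adjusted p = 0.22). The difference between those responses did not pass either (-0.34, edgeR adjusted p = 0.38). *Rps27l* fell with differentiation, at 85.3, 99.3 and 108 CPM in WT myotubes and 168, 158 and 147 CPM in WT myoblasts (-0.69 ± 0.10, edgeR adjusted p = 3.3e-04), and at 108, 113 and 123 CPM in *mdx* myotubes and 181, 168 and 199 CPM in *mdx* myoblasts (-0.67 ± 0.10, edgeR adjusted p = 0.0017).

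In *Rps24* the share of a transcript shifted far more than the level of the gene. This small-subunit protein, encoded by a gene mutated in some families with Diamond-Blackfan anaemia, is known for alternative use of small exons at the end of its coding sequence. Transcripts Rps24-205 (525 bases) and Rps24-202 (519 bases) differ by where they are annotated to start and by an exon of 18 bases at chr14:24494052-24494069 (plus strand, GRCm38), printed here in capitals with 6 bases of the neighbouring exons on each side.
Rps24-205: aaaaagAAATGAAATACCTAGCAGtgagtg
Rps24-202: aaaaagtgagtg
The shares belong to whole transcripts. The transcript with the small exon held 5.00 ± 0.325% of the TPM of the gene in *mdx* FiMuSCs and 3.31 ± 0.353% in WT FiMuSCs, and 8.26 ± 1.14% in *mdx* AMuSCs and 9.72 ± 1.18% in WT AMuSCs (mean ± SD, n = 3). It held 7.47, 9.31 and 7.87% in *mdx* myoblasts and 17.2, 16.7 and 16.8% in WT myoblasts, and 63.8, 66.5 and 67.2% in *mdx* myotubes and 74.4, 70.0 and 73.7% in WT myotubes. Myotubes thus lay above every other state in both genotypes, while the level of the whole gene moved by -0.17 ± 0.06 on the log2 scale in WT (edgeR adjusted p = 0.039) and by -0.25 ± 0.12 in *mdx* (edgeR adjusted p = 0.12). *mdx* and WT did not overlap in FiMuSCs, where *mdx* was higher, or in myoblasts and myotubes, where *mdx* was lower, and they overlapped in AMuSCs. The shares are a description, and with 3 libraries against 3 an exact permutation test cannot go below p = 0.1. Proliferation and myofibre markers moved with the same groups. The 10 mature myofibre markers summed to 25200 to 33432 CPM in *mdx* myotubes and 35422 to 40147 CPM in WT myotubes, and the part of the degree of differentiation in the shares was not tested. Of the other members at 50 TPM or more, *Rpl15* alone had a leading transcript that moved by 20 points or more in mean share. Groups were compared within the same RNA kit. Rpl15-202 held 30.7 ± 1.54% in WT AMuSCs and 52.2 ± 2.90% in WT FiMuSCs. For *Rpl15*, most reads lay on its other transcripts and on copies. Its shares therefore describe only the smaller part of its reads, on protein-coding transcripts.

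**Figure D5:**
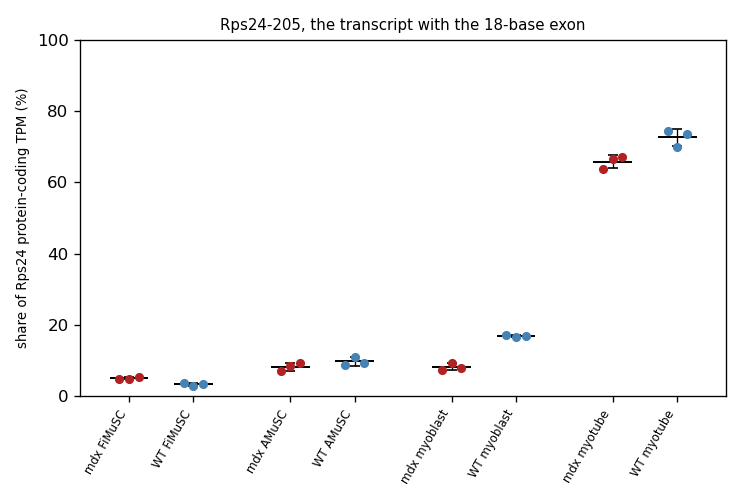
Share of the TPM of *Rps24* held by the transcript with the exon of 18 bases, Rps24-205 (vertical axis, percent), in the 24 libraries with *mdx* left of WT in each state. Points are libraries and black lines and bars are means and SDs of 3. Myotubes lie between 63.8 and 74.4% and all other libraries at or below 17.2%.

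Chaperones and assembly factors bring ribosomal proteins to the sites where subunits are built. Of 21 tested chaperones and assembly factors of ribosomal proteins, 16 rose and 2 fell with injury in WT (median log2 fold change 0.80), among them *Nmd3*, the export adaptor of the large subunit (1.41), *Efl1*, a GTPase of its final maturation (1.33), and *Tsr1* and *Riok2* of the small subunit (1.31 and 1.28), where 31.5% of all genes were higher. In *mdx* 2 rose and 1 fell (median 0.10), beside 19.1% of all genes higher and 10.4% lower. By the test of the difference itself, 8 of the 21 had a smaller response in *mdx* (median -0.70), beside 6.95% of all genes. Between *mdx* and WT AMuSCs 12 of 21 fell and none rose (median -0.60), beside 8.99% of all genes lower and 14.8% higher. Without *mdx* AMuSC replicate 2, none rose and 2 fell with injury in *mdx* (median -0.08), where 9.73% of all genes fell. In the same setting, 16 had a smaller response in *mdx*, beside 11.7% of all genes, and 16 were lower in *mdx* AMuSCs than in WT AMuSCs, beside 15.1%. With all libraries, that comparison gave -0.88 for *Nmd3*, -1.01 for *Tsr1*, -1.09 for *Rrs1*, which recruits the 5S particle, and -0.77 for *Riok2*. With differentiation 13 fell and 6 rose in WT, among them *Rrs1* (-1.22) and the large AAA ATPase *Mdn1* (-1.37), and 8 fell and 5 rose in *mdx*. Over all genes 34.5% fell and 34.9% rose in WT, and 26.5% fell and 25.7% rose in *mdx*. The medians of these factors were -0.35 in WT and -0.22 in *mdx* with differentiation, beside -0.23 and -0.28 for the ribosomal protein genes. Within the ribosome, 3 of 8 genes of exit tunnel proteins rose with injury in WT and none in *mdx*, beside 31.5% and 19.1% of all genes, and 3 and 4 fell with differentiation in WT and *mdx*, beside 34.5% and 26.5%. Of 8 genes of proteins along the mRNA path and decoding site, 2 rose with injury in each genotype, and 6 and 3 fell with differentiation in WT and *mdx*. With so few genes these counts are read as no more than their numbers. Of 12 factors of ribosome rescue and dormancy, 8 rose and 2 fell with injury in WT, among them the dormancy factor *Serbp1* (1.78), and 2 rose in *mdx*. Over all genes 31.5% rose and 33.1% fell in WT, and 19.1% rose in *mdx*.

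Other messages known to carry the TOP motif were tested as a list of 27. With injury 17 rose and 1 fell in WT, where 31.5% of all genes were higher. Those that rose included the nucleolar chaperone *Npm1* (2.49), the histone chaperone *Nap1l1* (2.28) and the poly(A)-binding protein *Pabpc1* (1.77). Of the 27, 10 rose and 1 fell in *mdx*, beside 19.1% higher (7 and 1 without *mdx* AMuSC replicate 2). The same 3 genes fell with differentiation in WT by 2.34 for *Pabpc1*, 2.06 for *Npm1* and 1.95 for *Nap1l1*. Of the 27, 11 fell and 8 rose in all, beside 34.5% of all genes lower and 34.9% higher. In *mdx* AMuSCs against WT AMuSCs 5 fell and none rose (13 and none without that library), including *Npm1* (-0.94) and *Nap1l1* (-0.80), beside 8.99% of all genes lower (15.1% without that library). Of 18 regulators of TOP messages and ribosomal protein genes, 10 rose and 7 fell with injury in WT, 3 rose and 2 fell in *mdx*, and 1 was higher and 3 were lower in *mdx* AMuSCs than in WT AMuSCs. The shares of all genes higher and lower were 31.5% and 33.1%, 19.1% and 10.4%, and 14.8% and 8.99% in the same order. With differentiation 7 of 17 rose and 8 fell in WT, beside 34.9% of all genes higher and 34.5% lower. In *mdx* 8 of 18 rose and 5 fell, beside 25.7% higher and 26.5% lower. *Larp1*, the repressor of TOP messages, rose with injury in WT (1.29, edgeR adjusted p = 6.9e-06) as did *Rptor* of mTOR complex 1 (1.03), and *Larp1* and *Larp4* were lower in *mdx* AMuSCs than in WT AMuSCs (-0.67 and -1.02). *Myc*, a transcription factor that drives ribosome production, was lower in WT myotubes than in WT myoblasts (-2.76) and lower in *mdx* AMuSCs than in *mdx* FiMuSCs (-1.42).

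Genes of the mitochondrial ribosome rose with injury and with differentiation. Of 78 mitochondrial ribosomal protein genes, 74 rose and 1 fell with injury in WT (median 1.13), and 62 rose and 1 fell in *mdx* (median 0.85), beside 31.5% and 19.1% of all genes higher. With differentiation 64 rose and 4 fell in WT (median 0.63), and 52 rose and 1 fell in *mdx* (median 0.56), where the cytosolic genes had negative medians. Over all genes 34.9% rose in WT and 25.7% in *mdx*. Between *mdx* and WT AMuSCs 20 of 78 fell and none rose (median -0.42), and 11 had a smaller injury response in *mdx*, beside 8.99% and 6.95% of all genes. Without *mdx* AMuSC replicate 2 these counts were 66 and 46, beside 15.1% and 11.7% of all genes, and 45 rose and 1 fell with injury in *mdx*, beside 11.6% higher. Of the 4 cytosolic ribosomal proteins that the naming rule leaves out, *Rpl36al* rose with injury in WT and in *mdx* (1.25 and 0.84), and *Rack1*, the scaffold protein of the small subunit, fell with differentiation in WT and in *mdx* (-0.45 and -0.49).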

How the data were processed

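Poly(A)-selected, strand-specific RNA-seq libraries were deposited by the authors as one transcript table per sample with expected counts (estimated reads) and TPM, which per the submitters' processing notes came from Salmon 0.13.1 on GRCm38. Expected counts deposited by the authors were summed per gene, over protein-coding transcripts for members and over all transcripts for other genes, and rounded. Each comparison was fitted over all genes in edgeR 4.0.16 (R 4.3.3; filterByExpr, TMM, robust quasi-likelihood, two-sided test, Benjamini-Hochberg over all genes tested, threshold 0.05). CPM are scaled within a comparison. TPM deposited by the authors, scaled by effective length within each library, gave levels and transcript shares with no test. Copies were found with blastn 2.17.0 among GENCODE M21 transcripts. DESeq2 1.42.0, other filters and scalings, other count rules and leaving out each library were alternatives. The fit was tested on simulated data with 200 changed genes, drawn from all genes tested. Of genes changed 2-fold, 35.8% were recovered between *mdx* and WT AMuSCs, 44.8% with injury in WT and 56.7% with differentiation in WT. For the difference of injury responses it was 7.46%. In the same order the shares were 2.99, 4.48, 37.3 and 1.49% at 1.5-fold and 57.6, 69.7, 75.8 and 40.9% at 4-fold. p-values cover only the spread between these samples. Members and lists were chosen with earlier results of these data known. Named members were those with the 5 largest and 5 smallest called changes per comparison, the 5 highest and lowest and 8 most variable in level, paralogues and their parents, the 5S pair, the stalk and Rps24, with up to 4 genes per list by smallest p; other names were chosen after their values were seen, and 1 result is not reported here.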

Additional observations from a re-analysis of the deposited data

Results flagged for a closer look

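Reads outside the counted transcripts were flagged because they lay in data that the comparisons of protein-coding transcripts leave out. In the median library, near-identical copies of member genes held 28.0% of the reads on members, their other transcripts and copies, and other transcripts of the member genes held 17.3%. No control sample exists for either value. Both were close to the same in all 24 libraries, and the comparisons with these reads added are given beside those without them.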

How the results depend on the processing

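The count of members called kept its direction and stayed within 1.5 times its main value under 137 of 172 alternatives and the median log2 fold change moved little under 166 of 172. The main count was 0 between the genotypes in FiMuSCs, myoblasts and myotubes and for both differences of responses. No ratio to the main value exists there, so those comparisons add little to the share of stable counts. The copies, the library totals and the limit of 300 bases were alternatives chosen after seeing the data. The ratio of the lowest to the highest group mean of summed level was the same under 4 of 4 alternatives. Between *mdx* and WT FiMuSCs, DESeq2 called 1 member, counting named pseudogenes called 1, and leaving out a library gave 0 to 1. Between *mdx* and WT AMuSCs, DESeq2 called 8, counting named pseudogenes 1, adding all transcripts and copies 1, effective-length offsets 0, and leaving out a library 0 to 26, with medians of -0.39 to -0.057. In myoblasts DESeq2 called 1 and all transcripts 1, and in myotubes DESeq2, no filter and all transcripts called 1 each. With injury in *mdx*, 7 were called with no filter, 5 with all transcripts, 6 with named pseudogenes, 6 with effective-length offsets, 4 with copies added and 2 to 11 with a library left out, and the median was -0.060 to 0.28, reversed without *mdx* AMuSC replicate 2. With injury in WT the median was 0.14 by library totals, and 27 to 37 were called with a library left out. The difference of the injury responses gave 3 calls with all transcripts and 0 to 12 with a library left out, with medians of -0.38 to -0.050. With differentiation, library totals called 57 members in *mdx* (median -0.62) and 68 in WT (median -0.54), and leaving out a library gave 18 to 36 in *mdx* and 35 to 44 in WT. Of 79 called results of named members, 38 passed under all settings, 41 fell short under at least 1 and 3 turned in sign under at least 1, namely *Rpl22* with injury in WT (0.51 by effective-length offsets), *Rpl21* with differentiation in WT (0.044 with all transcripts and 0.069 with copies) and *Rpl36* with differentiation in WT (-0.038 by library totals). The cause of these changes was not tested.

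No label ties a replicate number to an animal or a day. Correlations of same-numbered libraries' deviations from their group means ran from -0.16 to 0.13 in the genotype and injury comparisons. The 6 between myotubes and myoblasts were all positive, 0.033 to 0.36, but 4 were under 0.1, so the block was kept as an alternative. The highest, 0.36, belonged to replicate 1 of *mdx* cells, whose myoblast and myotube libraries shared the shifts of 6 members described below. The differentiation tests were unpaired, and whether libraries of the same number share a culture was not tested. With the replicate block, 1 member was called between *mdx* and WT AMuSCs and 6 with injury in *mdx*; the other counts stayed within 1.5 times the main ones.

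With 3 libraries per group, differences below the spread given beside each result were not detectable. Members with few reads on protein-coding transcripts rest on how reads were shared between a gene and its copies, and levels per length rest on listed effective lengths that are short for some transcripts.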

Other observations

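Of 70 members at 10 CPM or more, 6 were shifted in the same direction in replicate 1 of *mdx* myoblasts and of *mdx* myotubes against replicates 2 and 3 of each, by at least 0.5 on the log2 scale. *Rpl3* was lower by 2.25 in myoblasts and 2.12 in myotubes on that scale, *Rpl26* by 1.15 and 1.11, *Rps3a1* by 1.11 and 1.03, *Rpl30* by 0.80 and 0.72, and *Rpl29* by 0.72 and 0.71. *Rpl10* was higher by 0.52 in myoblasts and 0.93 in myotubes. With all transcripts and copies counted, none of 80 members was shifted in this way. These genes were picked by their values and no test was run.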
